A study of Homo sapiens with 16 samples.

Results

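Jurkat cells that carried a scrambled control were compared with wild-type Jurkat cells, the comparison between the 2 controls of a USP7 knock-down study in which no USP7 hairpin is involved. The members were chosen by the sample titles and are 4 of the 16 libraries of the series, 2 from scrambled and 2 from wild-type cells. Jurkat is an established line of T-cell acute lymphoblastic leukemia (T-ALL) that the labels give as TAL1+, and the total RNA of each library was depleted of ribosomal RNA before sequencing. The series also holds Jurkat cells with either of 2 hairpins against USP7, shRNA-4057 and shRNA-4058, and the same 4 groups of HSB-2, another TAL1+ T-ALL line.

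Scrambled cells differ from wild-type cells in all that the control brings with it. The labels call the agent a scrambled siRNA and the series' design text a scramble shRNA. The study's methods describe lentiviral shRNA, with transduced cells sorted for GFP or selected in puromycin, and whether wild-type cells went through a mock transduction, sort or selection is not given in the sources used here. Transduction, vector, sort or selection and culture history therefore cannot be told apart in this contrast. Each group stands for 1 line, and the labels do not state whether replicates came from separate transductions or cultures, so that p-values measure the spread between these samples, which may be technical.

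A scrambled hairpin enters the RNA interference machinery without a matched transcript and is meant to hold constant everything about transduction except loss of the target. Cells that sense low oxygen turn on genes of glucose uptake, glycolysis and lactate export through the HIF transcription factors, which bind a short core sequence in DNA. Immediate early genes such as EGR1 are induced within minutes by receptor signalling and in T cells follow antigen receptor engagement.

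Total counts were 110265819 and 86892818 in the wild-type libraries and 96747128 and 102265303 in the scrambled libraries. Levels are given as CPM, read counts scaled to a common library size, after TMM scaling, a normalization that sets the bulk of genes equal, and a floor of 3 counts corresponded to 0.0257 to 0.0333 CPM in these 4 libraries. Floors cover counting error only. The replicates of either group differed by more than sampling noise, with a chi-square per gene of 20.2 in wild-type and 19.3 in scrambled cells, and were kept as separate samples. The labelled cell type was met by its markers: all 12 T-lineage markers found in the table were detected, with a summed level of 3483 and 3589 CPM in wild-type and 3811 and 3900 CPM in scrambled cells. Markers of other cells were low, with summed levels of 55.5 and 56.2 against 85.2 and 86.9 CPM for 7 B-lineage markers, 0.72 to 1.14 against 0.58 to 0.76 CPM for 9 myeloid markers, 13.1 and 13.9 against 17.1 and 16.2 CPM for 9 erythroid and megakaryocyte markers and 9.4 and 8.8 against 6.7 and 6.5 CPM for 11 epithelial, fibroblast and embryonic kidney markers. Of these, 1 myeloid marker, 4 erythroid and megakaryocyte markers and 4 of the last list had no count in any of the 4 libraries. For 33 genes chosen as present in all HSB-2 controls and nearly absent from wild-type Jurkat cells, the scrambled Jurkat libraries reached 0.0203% and 0.0246% of the HSB-2 wild-type sum. The wild-type Jurkat libraries, held low by that choice, were at 0.0169% and 0.0176%.

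USP7 itself, a deubiquitylating enzyme, did not pass the test between the Jurkat controls. USP7 (ENSG00000187555.10; GRCh37, chromosome 16, minus strand, 8985954 to 9069185) stood at 395.6 and 385.9 CPM in the wild-type libraries and at 383.7 and 386.8 CPM in the scrambled libraries. The log2 fold change was -0.02 with a standard error of 0.034 (adjusted p = 0.72). The hairpin libraries of Jurkat lay far below, at 140 and 145 CPM for shRNA-4057 and 244 and 242 CPM for shRNA-4058.

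Of 23063 genes tested, 5964 were called at an adjusted p under 0.05 between scrambled and wild-type Jurkat cells (25.9%), 3420 of them higher in scrambled cells (14.8% of the genes tested) and 2544 lower (11%). Most of these differences were small: the median absolute log2 fold change of the calls was 0.30. A change of at least 1.5-fold was seen in 483 called genes that were higher (2.09%) and 724 that were lower (3.14%), and a change of at least 2-fold in 193 and 390. The split between directions depended on the scaling: 57.34% of the calls were higher under TMM, 46.53% with a per-gene offset that fits GC content and length, and 18.02% under library totals, where the median gene fell by 0.164 on the log2 scale. Group sizes of 2 and a shared estimate of spread, a biological coefficient of variation of 4.2%, stand behind each call. In bulk samples, fewer cells of a type and less RNA per cell cannot be told apart.

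The scrambled libraries stood further from the other Jurkat groups than the wild-type libraries did. Among 13724 genes that averaged 1 CPM or more, both scrambled libraries lay outside the range of the other 6 Jurkat libraries in 5906 genes (43.03%), above it in 3822 and below it in 2084. Both wild-type libraries lay outside the range of the other 6 in 1703 genes (12.41%). For the hairpins the shares were 38.79% (shRNA-4057) and 32.25% (shRNA-4058). Of the 1207 calls of at least 1.5-fold between the controls, the scrambled cells lay outside the range of the other 6 libraries in 987. The wild-type cells did so in 187, shRNA-4057 cells in 476 and shRNA-4058 cells in 147. These genes were chosen by a difference between the controls, so their counts are not a like comparison with the hairpin groups. A gene can count for more than a single group. The 10 most abundant genes took 14.94% and 17.04% of the counts of the scrambled libraries, 10.85% and 12.15% in wild-type cells and 8.16% to 9.43% in the hairpin libraries of Jurkat. With the 13 most abundant genes left out, 5955 genes were called, 56.79% of them higher.

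**Figure D1:**
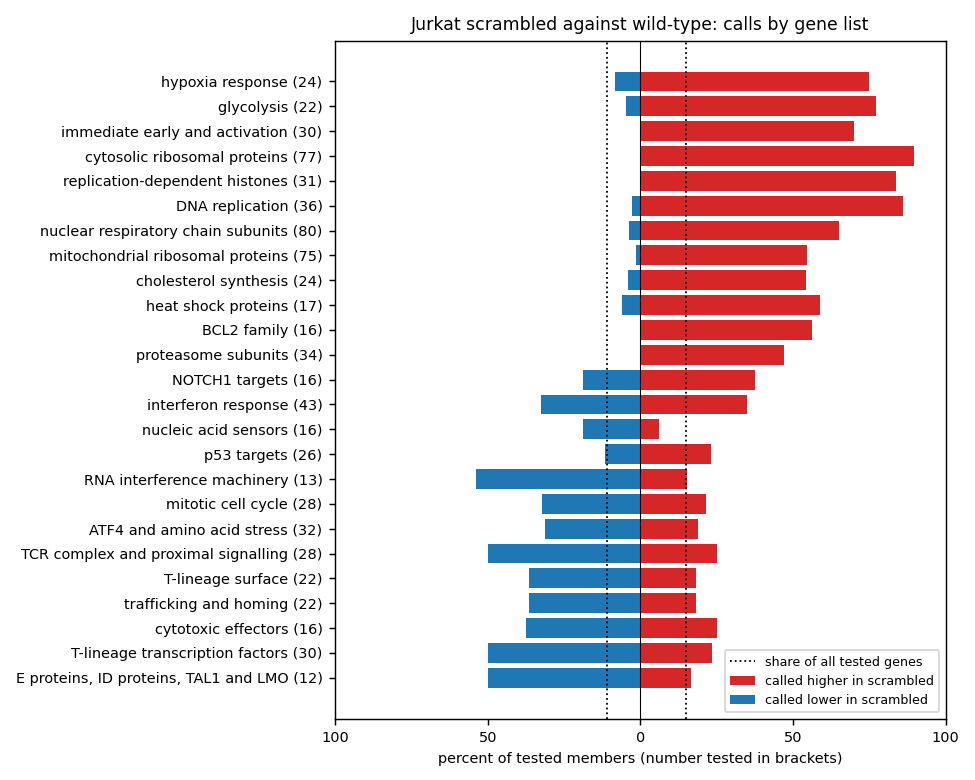
Percent of the tested members of 25 gene lists that were called higher (bars to the right) or lower (bars to the left) in scrambled than in wild-type Jurkat cells, with the number tested in brackets and dotted lines at the shares of all tested genes, 14.8% and 11%. Hypoxia, glycolysis, immediate early, ribosomal protein, histone and DNA replication genes lie mostly to the right, and T-lineage transcription factors mostly to the left.

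Genes that respond to low oxygen were higher in scrambled cells. Of 24 hypoxia-response genes, 18 were called higher and 2 lower, with 9 higher by at least 1.5-fold, and their median log2 fold change was 0.38 against -0.004 over all genes tested. Both scrambled libraries lay above the other 6 Jurkat libraries in 17 of the 24 (70.83%), against 27.85% of all genes of at least 1 CPM. Under library totals 17 of the 24 were still called higher, and 21 with the GC and length offset. Of the HIF subunits, EPAS1 rose by 0.40 on the log2 scale (adjusted p = 8.3e-05), while HIF1A went from 83.5 and 83.4 to 75.7 and 74.1 CPM (log2 fold change -0.16, adjusted p = 0.0055), a call that was lost without the scrambled replicate 2 (adjusted p = 0.06).

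The promoters of 4 of these genes are shown because they hold the HIF core sequence, ACGTG, and the genes differ in how far they changed. Each line gives the 250 bases before the RefSeq start site on GRCh38.p14, 5′ to 3′ on the plus strand, with matches to ACGTG on either strand in capitals. A CACGTG stretch reads as ACGTG on both strands and is counted as 2 matches. The windows are chrX:78103998-78104247 (PGK1), chr3:4979187-4979436 (BHLHE40), chr4:185396591-185396840 (ANKRD37) and chr9:35673678-35673927 (CA9).
PGK1: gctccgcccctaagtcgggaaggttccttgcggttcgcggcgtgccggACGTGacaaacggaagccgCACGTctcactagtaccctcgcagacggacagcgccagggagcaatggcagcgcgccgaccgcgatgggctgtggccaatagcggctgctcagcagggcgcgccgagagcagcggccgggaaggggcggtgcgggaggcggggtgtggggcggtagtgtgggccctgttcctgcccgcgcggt
BHLHE40: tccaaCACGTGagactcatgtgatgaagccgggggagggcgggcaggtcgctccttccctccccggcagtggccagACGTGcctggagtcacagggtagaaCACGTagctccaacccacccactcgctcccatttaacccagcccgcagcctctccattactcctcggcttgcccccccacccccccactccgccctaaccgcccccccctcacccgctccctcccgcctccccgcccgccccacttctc
ANKRD37: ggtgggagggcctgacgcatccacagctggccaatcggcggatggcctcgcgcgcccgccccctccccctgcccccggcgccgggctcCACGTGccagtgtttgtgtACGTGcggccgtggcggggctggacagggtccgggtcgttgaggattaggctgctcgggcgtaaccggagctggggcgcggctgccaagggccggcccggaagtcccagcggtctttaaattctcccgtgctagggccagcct
CA9: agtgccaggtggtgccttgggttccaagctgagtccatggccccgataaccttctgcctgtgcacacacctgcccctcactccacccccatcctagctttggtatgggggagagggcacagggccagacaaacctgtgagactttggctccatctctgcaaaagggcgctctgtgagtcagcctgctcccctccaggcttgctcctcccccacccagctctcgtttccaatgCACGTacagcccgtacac

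PGK1 has 2 matches, which begin 202 and 183 bases before the start, BHLHE40 has 4 matches in 3 stretches, ANKRD37 has 3 in 2 stretches and CA9 has 1, 18 bases before the start. The core was found in the windows of 14 of the 20 hypoxia-response genes with a RefSeq promoter (70%) and of 12 of 20 glycolysis genes (60%), against 21.7% of 27305 genes and 18.5% of 35116 promoters. The windows of ADM and ENO1, which also rose, do not hold these letters. A match describes the sequence only.

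ADM, which encodes the vasodilator peptide adrenomedullin, had the largest rise among the hypoxia-response genes. ADM (ENSG00000148926.5; GRCh37, chromosome 11, plus strand, 10326620 to 10328944) was at 3.92 and 4.26 CPM in wild-type and 29.5 and 31.0 CPM in scrambled cells. The log2 fold change was 2.89 with a standard error of 0.104 (adjusted p = 1.3e-15). The 2 scrambled libraries exceeded the others of the line by far, since shRNA-4057 cells were at 2.14 and 2.32 CPM and shRNA-4058 cells at 8.75 and 10.5 CPM.

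Other hypoxia-response genes rose as well, among them CA9, BHLHE40 and ANKRD37, whose windows hold the core. CA9, a carbonic anhydrase of the cell surface, was low throughout but rose from 0.505 and 0.556 to 1.99 and 2.67 CPM (log2 fold change 2.13, adjusted p = 6e-06). BHLHE40, a transcriptional repressor, was at 52.9 and 53.1 CPM in wild-type and at 107 and 110 CPM in scrambled cells (log2 fold change 1.03, adjusted p = 2.1e-14). ANKRD37 went from 5.47 and 5.15 to 11 and 9.99 CPM (log2 fold change 0.98, adjusted p = 2.9e-10). In none of these did the groups overlap, which also held for 5958 of the 5964 called genes. HILPDA, a lipid droplet protein, rose from 30.4 and 29.7 to 64.9 and 64.3 CPM (log2 fold change 1.10), and ANGPTL4, a secreted inhibitor of lipoprotein lipase, from 0.633 and 0.60 to 1.95 and 1.83 CPM (log2 fold change 1.61). VEGFA, the vascular growth factor, was at 38.5 and 41.7 against 40.8 and 42.2 CPM and did not pass the test (log2 fold change 0.05, adjusted p = 0.48).

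The glycolysis genes rose along most of the pathway. Of 22 tested, 17 were called higher and 1 lower, with 6 higher by at least 1.5-fold, and the median log2 fold change was 0.43. With the GC and length offset 17 were higher and 2 lower, 3 were higher by at least 1.5-fold, and the median was 0.37. Under library totals 16 were higher and 4 lower, 2 were higher by at least 1.5-fold, and the median was 0.27. Both scrambled libraries lay above the other 6 Jurkat libraries in 18 of the 22 (81.82%). SLC2A1, the main glucose transporter of proliferating cells, went from 105 and 110 to 175 and 179 CPM (log2 fold change 0.73, adjusted p = 9.1e-12). PGK1, which makes the first ATP of the pathway, rose from 1338 and 1362 to 2274 and 2249 CPM (log2 fold change 0.74, standard error 0.0258, adjusted p = 7.9e-16). The gap between the groups was many times the gap between the replicates of either group.

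Other enzymes moved by similar amounts. ENO1, the enolase of most tissues, rose from 3012 and 3147 to 5103 and 5258 CPM (log2 fold change 0.75, adjusted p = 1.9e-14). ALDOC, an aldolase, rose from 242 and 250 to 391 and 404 CPM (log2 fold change 0.69). GAPDH, often used as a reference gene, was at 4722 and 4923 CPM in wild-type and 6374 and 6675 CPM in scrambled cells (log2 fold change 0.44, adjusted p = 1.4e-09). ENO1, GAPDH, the elongation factor gene EEF1A1 (log2 fold change 0.26) and the noncoding RNAs RN7SL2 and RN7SK were the 5 genes with the largest gain in CPM. ENO3, the muscle enolase, was the member called lower (30.8 and 31.9 against 25.9 and 28.8 CPM, log2 fold change -0.19), a call lost without the wild-type replicate 2 (adjusted p = 0.1) or the scrambled replicate 1 (adjusted p = 0.24). Retained copies of PGK1, ENO1 and GAPDH elsewhere in the genome could share reads with them.

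**Figure D2:**
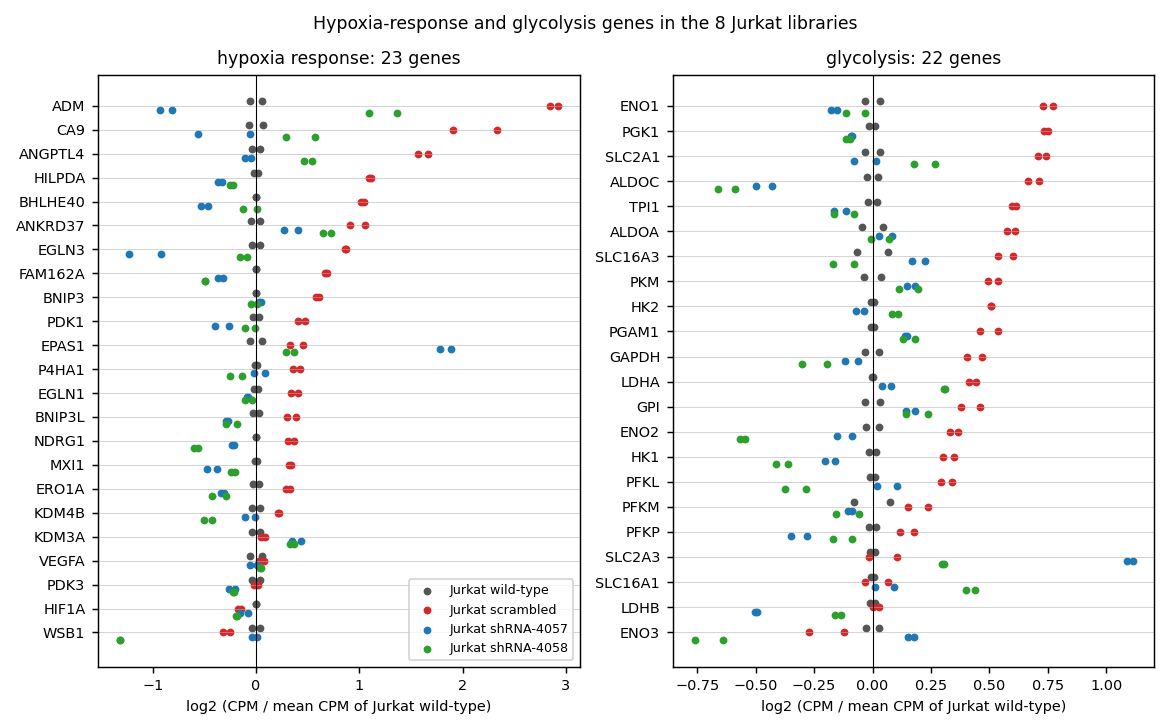
Log2 of CPM over the mean of Jurkat wild-type for 23 hypoxia-response genes (left; P4HA2, under 0.1 CPM, is left out) and 22 glycolysis genes (right) in the 8 Jurkat libraries, 1 point per library and 1 colour per group. For ADM the scrambled points lie furthest right, and for the genes at the bottom, such as WSB1 and ENO3, they lie left of the wild-type points.

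Immediate early and activation genes were also higher in scrambled cells. Of 30 tested, 21 were called higher and none lower by edgeR, with a median log2 fold change of 0.35 and 11 higher by at least 1.5-fold. With the GC and length offset 20 were higher and 1 lower. Both scrambled libraries lay above the other 6 Jurkat libraries in 10 of the 30 (33.33%), against 27.85% of all genes of at least 1 CPM. The 3 EGR transcription factors led them. EGR1 (ENSG00000120738.7; GRCh37, chromosome 5, plus strand, 137801168 to 137804992) rose from 45.9 and 46.7 to 180.1 and 185.1 CPM, a log2 fold change of 1.98 with a standard error of 0.0408 (adjusted p = 5.7e-20). EGR3 rose from 0.89 and 0.756 to 4.28 and 3.73 CPM (log2 fold change 2.27) and EGR2 from 0.565 and 0.422 to 1.80 and 2.07 CPM (log2 fold change 1.95). All 3 were also above wild-type cells in the hairpin libraries of Jurkat, where EGR1 was at 98.5 and 92.8 CPM (shRNA-4057) and 125.9 and 128.3 CPM (shRNA-4058).

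The EGR1 promoter is given because its serum response elements (CArG boxes, a run of A and T between CC and GG) are the classic entry point of growth factor and antigen receptor signals. The window is chr5:138465229-138465478 on GRCh38.p14, plus strand, with the 2 CArG boxes in capitals, 105 and 83 bases before the RefSeq start.
EGR1: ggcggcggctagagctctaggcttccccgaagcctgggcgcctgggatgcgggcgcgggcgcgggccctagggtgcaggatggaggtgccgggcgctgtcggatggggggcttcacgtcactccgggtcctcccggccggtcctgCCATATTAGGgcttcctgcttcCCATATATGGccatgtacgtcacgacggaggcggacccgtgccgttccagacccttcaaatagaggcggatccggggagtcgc

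CArG boxes were found in the windows of 3 of 23 immediate early genes with a RefSeq promoter (13%) and of 1.44% of all genes. The HIF core was found in 9 of these 23 (39.1%).

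CD69, an early surface marker of T-cell activation, was at 26.9 and 26.0 CPM in wild-type and 58.5 and 50.7 CPM in scrambled cells (log2 fold change 1.05, adjusted p = 1.1e-11). NR4A1, a nuclear receptor induced by T-cell receptor signalling, rose from 9.51 and 9.45 to 16.5 and 17.4 CPM (log2 fold change 0.84), and SPRY1, a feedback inhibitor of the MAP kinase pathway, from 11.5 and 11.8 to 22.3 and 22.2 CPM (log2 fold change 0.93). NR4A3 rose at a low level, from 0.462 and 0.389 to 0.803 and 1.05 CPM (log2 fold change 1.11, adjusted p = 0.00079). Neither FOSB (1.88 and 2.40 against 2.38 and 2.24 CPM, adjusted p = 0.52) nor DUSP1 (12.2 and 12.1 against 14.5 and 13.4 CPM, adjusted p = 0.069) passed the test. Among NF-kB targets, 6 of 18 were called higher and 3 lower (5 and 5 under library totals), and TNFAIP3, the feedback inhibitor of that pathway, rose from 99.6 and 99.2 to 160 and 164 CPM (log2 fold change 0.71).

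In HSB-2 the same genes went the other way. EGR1 fell from 655.4 and 670.7 CPM in HSB-2 wild-type to 154.6 and 155.1 CPM in HSB-2 scrambled cells (log2 fold change -2.10), so that the scrambled libraries of the 2 lines came to lie close together while the wild-type libraries lay far apart. The difference of the 2 changes, HSB-2 minus Jurkat, was -4.08 (adjusted p = 9.4e-24). In HSB-2, 27 of the 30 genes were called lower and 1 higher, SPRY1, with a median log2 fold change of -0.96, and the difference was called lower for 26 of the 30.

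**Figure D3:**
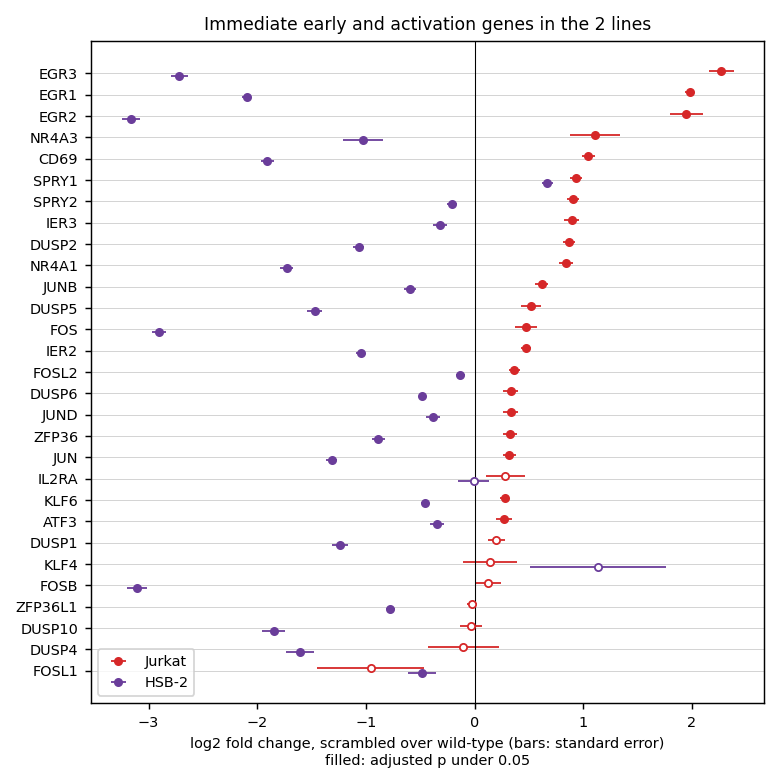
Log2 fold change of scrambled over wild-type cells for 29 immediate early and activation genes in Jurkat and HSB-2, with standard errors as bars and filled points where the adjusted p was under 0.05 (NR4A2, under 0.1 CPM in both Jurkat groups, is left out). Most Jurkat points lie right of 0 and most HSB-2 points left of 0, with EGR1, EGR2 and EGR3 furthest apart.

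Among T-lineage transcription factors, homing genes and cytotoxic effectors more genes were called lower than higher in scrambled cells. The 12 T-lineage markers did not share this, with 5 called higher and 1 lower (4 and 5 with the GC and length offset, 2 and 5 under library totals). Of 30 T-lineage transcription factors, 15 were called lower and 7 higher (median log2 fold change -0.17), and 6 were lower by at least 1.5-fold. EOMES, a T-box factor of effector and memory T cells (ENSG00000163508.8; GRCh37, chromosome 3, minus strand, 27757440 to 27764202), fell from 23.3 and 22.3 to 3.82 and 4.55 CPM (log2 fold change -2.44, standard error 0.0823, adjusted p = 4.8e-16). KLF2, a quiescence factor, fell from 33.2 and 38.0 to 12.6 and 12.7 CPM (log2 fold change -1.49, adjusted p = 6e-13). FOXO1, which with KLF2 maintains homing receptors, fell from 12.6 and 12.5 to 7.04 and 6.56 CPM (log2 fold change -0.88), and IKZF3 from 9.11 and 9.60 to 5.10 and 5.16 CPM (log2 fold change -0.87).

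The factors of the list that rose were fewer. TFAP2A went from 8.13 and 8.10 to 21.1 and 21.9 CPM (log2 fold change 1.41, adjusted p = 1.5e-12) and TOX2 from 4.68 and 5.36 to 10.3 and 9.77 CPM (log2 fold change 1.0). BCL11B, the T-lineage commitment factor, was at 348 and 367 against 353 and 362 CPM.

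Of 22 trafficking and homing genes, 8 were called lower and 4 higher, and all 6 changes of at least 1.5-fold were decreases. S1PR1, the receptor that guides T cells out of lymphoid tissue, fell from 41.2 and 38.0 to 14.5 and 13.9 CPM (log2 fold change -1.48, standard error 0.0527, adjusted p = 1.1e-15). CX3CR1, the fractalkine receptor, fell from 6.56 and 6.33 to 1.5 and 1.81 CPM (log2 fold change -1.96). S1PR4 fell by 1.04 and the integrin chain ITGB7 by 0.72 on the log2 scale. For S1PR1 the scrambled libraries were the outlying group, with shRNA-4057 cells at 101 and 100.2 CPM and shRNA-4058 cells at 68.1 and 71.1 CPM.

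Cytotoxic effector genes split. GZMK, which encodes granzyme K (ENSG00000113088.5; GRCh37, chromosome 5, plus strand, 54320084 to 54330398), had the largest decrease among the genes of at least 5 CPM, from 12.1 and 11.2 to 0.911 and 0.709 CPM (log2 fold change -3.85, standard error 0.135, adjusted p = 9.1e-16). The perforin gene PRF1 fell from 8.38 and 9.18 to 5.92 and 6.0 CPM (log2 fold change -0.56). GZMA, granzyme A, rose instead from 35.2 and 34.2 to 55.6 and 57.1 CPM (log2 fold change 0.70), and CTSW, a cathepsin of cytotoxic cells, from 13.8 and 13.8 to 25.6 and 25.7 CPM (log2 fold change 0.90). CTSW lies opposite FIBP on the other strand, and with the strand setting of the counting not stated their reads may not be fully separated. FASLG had 74 and 34 counts in wild-type and 0 and 2 counts in scrambled libraries, and KLRD1 had 21 and 13 against 1 and 1. In all, 6 of 16 cytotoxic effectors were called lower and 4 higher.

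Components of the T-cell receptor pathway moved in both directions, more of them lower. Of 28, 14 were called lower and 7 higher, and none of these decreases reached 1.5-fold. With the GC and length offset 20 were lower and 6 higher, and under library totals 20 and 3. CD3D, a chain of the receptor, rose from 304 and 309 to 404 and 420 CPM (log2 fold change 0.43), and the adaptors SLA and SIT1 rose by 0.50 and 0.65 on the log2 scale. The adaptor GRAP2 fell from 159 and 158 to 118 and 121 CPM (log2 fold change -0.41). The kinase TXK was at 1.83 and 1.49 CPM in wild-type and 1.25 and 1.16 CPM in scrambled cells (log2 fold change -0.47, adjusted p = 0.035), a call lost without the wild-type replicate 1 or either scrambled replicate (adjusted p = 0.36, 0.076 and 0.18). Among 22 T-lineage surface genes, 8 were lower and 4 higher. CD99 rose from 432 and 453 to 628 and 664 CPM (log2 fold change 0.55), and CD226, an activating receptor, fell from 24.3 and 23.4 to 13.0 and 13.3 CPM (log2 fold change -0.86). CD8A fell at about 1 CPM (log2 fold change -1.25).

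The E-protein and TAL1 network, the subject of the study, differed between these controls as well. Of 12 genes for E proteins, ID proteins, TAL1 and LMO partners, 6 were called lower and 2 higher. TAL1 was at 367 and 371 CPM in wild-type and 287 and 293 CPM in scrambled cells (log2 fold change -0.35, standard error 0.0328, adjusted p = 2.4e-08). The ID proteins, which hold E proteins off DNA, fell together: ID2 by 0.70, ID1 by 0.51 and ID3 by 0.35 on the log2 scale. The E-protein genes moved less, TCF3 from 309 and 329 to 349 and 358 CPM (log2 fold change 0.15, adjusted p = 0.024) and TCF12 from 363 and 351 to 333 and 336 CPM (log2 fold change -0.09, adjusted p = 0.03). The TCF3 call was lost without the wild-type replicate 1 or the scrambled replicate 2 (adjusted p = 0.25 and 0.15), and its value was -0.01 under library totals. The TCF12 call was lost without the wild-type replicate 1 or either scrambled replicate (adjusted p = 0.27, 0.14 and 0.081) and with the GC and length offset (adjusted p = 0.71). LMO1, a partner of TAL1, rose from 6.44 and 6.54 to 10.7 and 10.7 CPM (log2 fold change 0.72).

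Recombination, pre-TCR and CD1 genes, which mark the cortical stage of the thymus, had few calls. Of 9, CD1E was called lower (342 and 337 against 270 and 264 CPM, log2 fold change -0.35, adjusted p = 7.9e-05) and RAG1 higher (21.3 and 20.7 against 26.2 and 25.5 CPM, log2 fold change 0.30, adjusted p = 0.016), a call that was lost when any 1 of the 4 libraries was left out. DNTT, the terminal transferase, was at 223 and 220 against 222 and 219 CPM. A share of 2 in 9 is close to the 25.9% of all genes tested, but genes of at least 1 CPM were called more often than that. NOTCH1 targets gave 6 higher and 3 lower of 16 (1 and 4 under library totals). CR2, the complement receptor, was lower by 1.12 and TRIB2 by 0.56 on the log2 scale. HES4 was higher by 0.65, a call lost with DESeq2 (adjusted p = 0.05).

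The remaining genes with the largest changes belonged to no single list. SH3BP5, an inhibitor of the tyrosine kinase BTK and exchange factor for RAB11, fell from 80.2 and 84.9 to 12.8 and 15.2 CPM (log2 fold change -2.56, standard error 0.0541, adjusted p = 5.7e-20). AHNAK, a giant scaffold protein, fell from 112 and 113 to 40.2 and 42.2 CPM (log2 fold change -1.45), ANXA1, an annexin, from 87.9 and 86.0 to 37.5 and 36.4 CPM (log2 fold change -1.24) and PAG1, a membrane adaptor that recruits CSK, from 39.7 and 38.3 to 15 and 15.6 CPM (log2 fold change -1.35). The other decreases chosen by size were IPCEF1 (-2.17), LPAR6 (-1.81), TRGC2 (-1.70), SOX5 (-1.64), ARHGAP31 (-1.49) and OTOF (-1.21), all on the log2 scale and from levels under 15 CPM. LPAR6 lies within RB1 on the opposite strand and TRGC2 has a near-identical neighbour, so that their reads are uncertain.

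Among the increases, HAL, histidine ammonia-lyase, rose from 0.65 and 0.789 to 5.30 and 4.82 CPM (log2 fold change 2.82) and MME, the endopeptidase also known as CD10, from 2.04 and 2.18 to 8.64 and 8.01 CPM (log2 fold change 1.98, adjusted p = 2e-09). IL32, a cytokine gene of T and NK cells, rose from 212 and 215 to 501 and 512 CPM (log2 fold change 1.24, standard error 0.0363, adjusted p = 3.6e-17), which in CPM was the largest of the top rises. CEBPE, a C/EBP factor of granulocyte maturation, rose from 42.6 and 45.8 to 103.0 and 107 CPM (log2 fold change 1.25), and CEBPA from 0.137 and 0.367 to 0.521 and 0.624 CPM (log2 fold change 1.24, adjusted p = 0.023), a call lost without the wild-type replicate 1 (0.64, adjusted p = 0.35) or the scrambled replicate 2 (1.09, adjusted p = 0.12). APP, the amyloid precursor, rose from 8.02 and 7.07 to 18.5 and 19.7 CPM (log2 fold change 1.33). MYO5B, MYL4, ACTG2, C16orf74, PLCH1, DAAM2 and TEX19 rose by 1.57, 1.53, 1.32, 1.28, 1.28, 1.2 and 1.19 on the log2 scale.

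**Figure D4:**
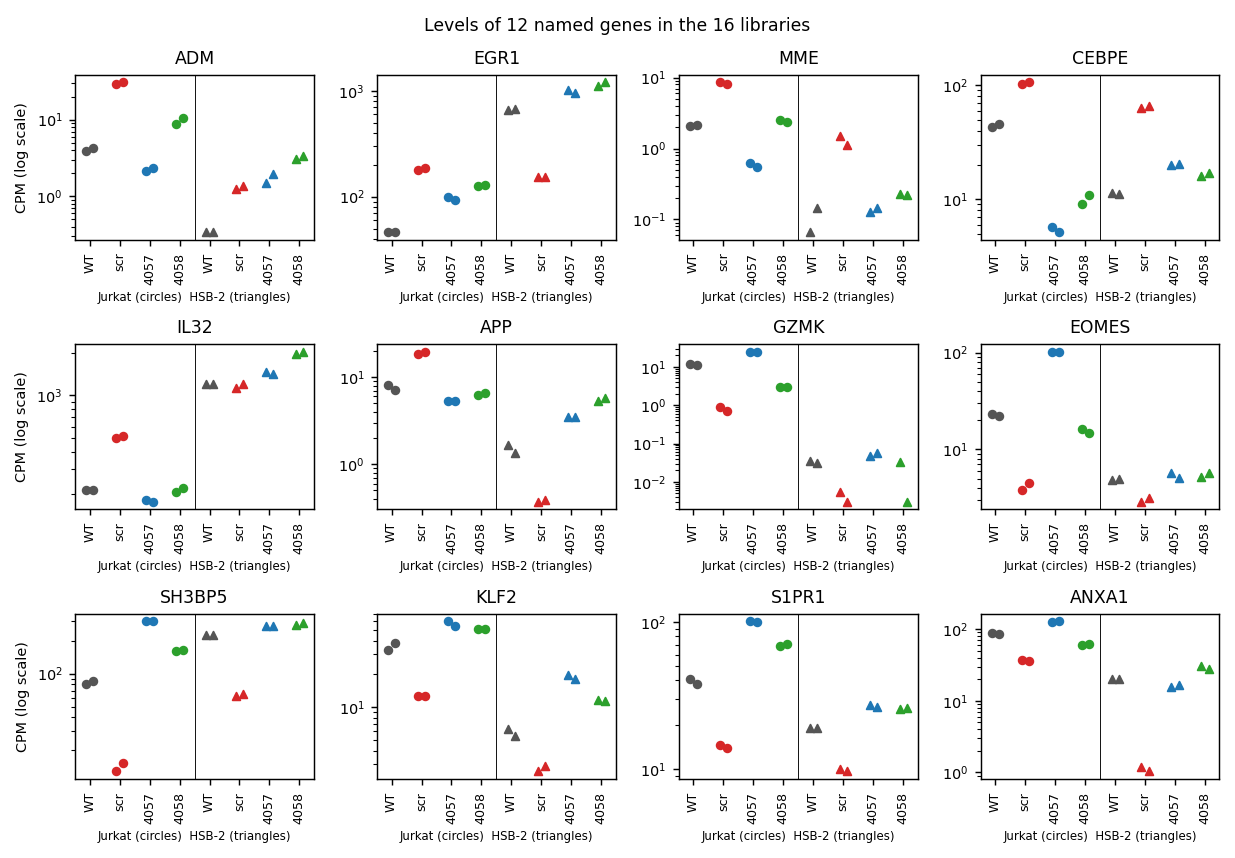
CPM on log axes of 12 named genes in all 16 libraries (grey wild-type, red scrambled, blue shRNA-4057, green shRNA-4058, 2 points per group; a library with no count is drawn at 0.003 CPM). For ADM, EGR1, MME, CEBPE, IL32 and APP the red Jurkat points lie above the other 6 Jurkat libraries. For GZMK, EOMES, SH3BP5, KLF2, S1PR1 and ANXA1 the red Jurkat points lie below them.

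Ribosomal and respiratory genes were higher by small amounts in scrambled cells. Of 77 cytosolic ribosomal protein genes, 69 were called higher and none lower by edgeR, with a median log2 fold change of 0.33 and 3 higher by at least 1.5-fold. RPS3A, at the top, went from 1026 and 971 to 1668 and 1551 CPM (log2 fold change 0.69), and RPS18 from 794 and 804 to 1258 and 1280 CPM (log2 fold change 0.67). Ribosomal protein genes have many processed copies that could share reads. With the GC and length offset 61 were called higher and 1 lower, and the median was 0.22. Of 80 nuclear genes for the respiratory chain, 52 were higher and 3 lower (41 and 4 with the offset, 27 and 8 under library totals), and of 75 mitochondrial ribosomal protein genes 41 were higher and 1 lower (25 and 4 with the offset, 16 and 7 under library totals).

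S-phase genes followed the same direction. Of 36 DNA replication genes, 31 were called higher and 1 lower, with a median log2 fold change of 0.24. TK1, thymidine kinase, led them with 32.8 and 33.8 CPM in wild-type and 54.8 and 54.2 CPM in scrambled cells (log2 fold change 0.71, adjusted p = 1.6e-08), and RRM2, a ribonucleotide reductase subunit, rose from 350 and 341 to 464 and 454 CPM (log2 fold change 0.41). Under library totals 15 of the 36 were called higher and 2 lower. Of 31 replication-dependent histone genes, 26 were higher and none lower by edgeR (median 0.25), but 15 were higher and 3 lower with the GC and length offset and 13 were higher and 2 lower under library totals. H2BC11 rose from 383 and 392 to 568 and 608 CPM (log2 fold change 0.60). Mitotic genes did not share the direction: 6 of 28 were higher and 9 lower. With the GC and length offset 5 were higher and 15 lower, and under library totals 1 and 21. CENPE, a mitotic kinesin, fell from 109 and 95.9 to 61.8 and 54.9 CPM (log2 fold change -0.81).

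Length and base composition moved with the contrast in Jurkat. Over 5 equal bins from the shortest to the longest transcripts the median log2 fold change was 0.142, 0.078, 0.03, -0.01 and -0.071, and over 5 bins from the lowest to the highest GC content it went from -0.035 to 0.089. In HSB-2 the length bins gave 0.019, -0.017, -0.001, -0.001 and 0.038, and the GC bins went the opposite way, from 0.103 to -0.104. The part of length and base composition in the lists above was measured only through the offset.

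**Figure D5:**
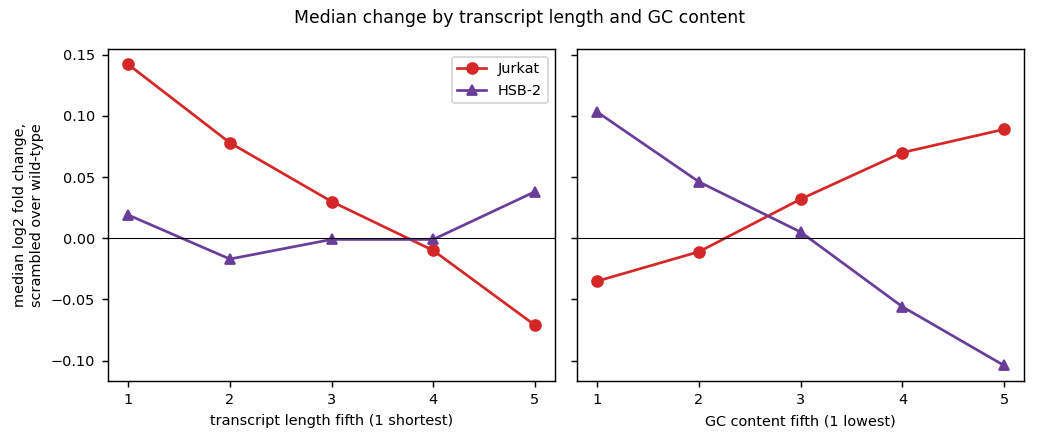
Median log2 fold change of scrambled over wild-type cells in 5 equal bins of genes by transcript length (left) and GC content (right), for Jurkat (circles) and HSB-2 (triangles). In Jurkat the median falls from 0.142 to -0.071 with length and rises from -0.035 to 0.089 with GC content, and in HSB-2 the GC trend runs the other way.

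Abundant noncoding RNAs shifted in level. RN7SL2, the RNA of the signal recognition particle, was at 25040 and 30300 CPM in wild-type and at 42140 and 52360 CPM in scrambled cells (log2 fold change 0.77, standard error 0.0873, adjusted p = 3.9e-07), and RN7SK, which restrains transcription elongation, rose by 0.59. TERC, the telomerase RNA, rose from 75.9 and 80.0 to 125 and 125 CPM (log2 fold change 0.68). RN7SL2 has near-identical copies and its reads are uncertain. MALAT1, a nuclear long noncoding RNA, fell from 3307 and 3140 to 2324 and 2186 CPM (log2 fold change -0.52). MIR3687, which lies in ribosomal DNA, went from 711 and 1095 to 566 and 575 CPM. The other genes with the largest losses in CPM were MACF1, a cytoskeletal linker (log2 fold change -0.69), CDK6, a cell cycle kinase (-0.27), and FADS2, a fatty acid desaturase (-0.28), which shares its locus with FEN1.

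Antiviral genes moved in both directions. Of 43 interferon response genes, 15 were called higher and 14 lower, with a median log2 fold change of -0.05 (4 and 19 under library totals). TRIM22 rose from 1.36 and 1.29 to 2.40 and 2.29 CPM (log2 fold change 0.82) at a low level. OASL fell from 1.62 and 1.83 to 0.890 and 1.06 CPM and IFIT1 from 2.91 and 2.61 to 1.74 and 1.80 CPM, while IFI44 was at 1.16 and 0.822 CPM in wild-type and 1.53 and 1.60 CPM in scrambled cells. Each of those 3 calls was lost in leave-one-out fits, OASL without the wild-type replicate 2 or scrambled replicate 1 (adjusted p = 0.05 and 0.07), IFIT1 without the wild-type replicate 1 or scrambled replicate 1 (0.1 and 0.059), and IFI44 without either replicate 2 (0.14 and 0.06). Of 16 nucleic acid sensors, 1 was higher and 3 lower, with STING1 from 57.2 and 59.9 to 38.7 and 39.9 CPM (log2 fold change -0.57). The share of sensors called was 25%, and that of the p53 targets given further on was 34.62%, against 25.9% of all genes tested. Of 13 genes of the RNA interference machinery, 2 were higher and 7 lower, none by 1.5-fold, among them TNRC6B (log2 fold change -0.25) and TNRC6A (-0.23), and 4 were lower with the GC and length offset. Of 26 p53 targets, 6 were higher and 3 lower (1 and 10 under library totals), with CDKN1A, the cell cycle inhibitor p21, from 1.39 and 1.63 to 2.28 and 1.97 CPM (log2 fold change 0.50), a call lost without the wild-type replicate 1 or the scrambled replicate 1 (adjusted p = 0.095 and 0.068).

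Of 16 BCL2 family genes, 9 were called higher and none lower by edgeR (5 and 2 with the GC and length offset, 3 and 3 under library totals), with BCL2 from 37.5 and 35.6 to 49.2 and 51.9 CPM (log2 fold change 0.47). Of 17 heat shock protein genes, 10 were higher and 1 lower (6 and 4 under library totals), led by HSPA8, the constitutive HSP70, from 870 and 857 to 1320 and 1369 CPM (log2 fold change 0.64, adjusted p = 3.4e-14). Of 24 cholesterol synthesis genes, 13 were higher and 1 lower, none by 1.5-fold (4 and 5 under library totals), with EBP, a sterol isomerase, from 77.7 and 80.4 to 97.8 and 104 CPM (log2 fold change 0.36) and MSMO1 higher by 0.37 on the log2 scale. Of 24 microtubule, actin and adhesion genes, 14 were higher and 4 lower. LGALS1, galectin 1, rose from 4.06 and 4.16 to 8.89 and 8.64 CPM (log2 fold change 1.09), and TMSB4X, an actin-sequestering peptide, from 1330 and 1314 to 2079 and 1939 CPM (log2 fold change 0.60).

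The same contrast in HSB-2 had more calls. In HSB-2, 7857 of the genes were called (34.1%), 3723 higher (16.1%) and 4134 lower (17.9%), and the difference between the lines was called for 6550 genes (28.4%), 2764 with a higher change in HSB-2 (12%) and 3786 with a lower one (16.4%). The 2 lines have separate control libraries. Decreases held in both for SH3BP5 (log2 fold change -1.82 in HSB-2), EOMES (-0.70), KLF2 (-1.11), S1PR1 (-0.94) and ANXA1 (-4.18), and increases for ADM (1.94), MME (3.82), CEBPE (2.52) and ACTG2 (1.19). The difference between the lines was called for 8 of these 9, as for EOMES (1.75, adjusted p = 9.1e-11) and ANXA1 (-2.95, adjusted p = 1.5e-16), and did not pass for ACTG2 (-0.13, adjusted p = 0.44). PAG1 fell in HSB-2 too (-1.54), and its difference did not pass either (-0.19, adjusted p = 0.064).

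Fewer genes of the hypoxia-response and glycolysis lists were called higher in HSB-2 than in Jurkat. Of the hypoxia-response genes, 13 of 24 were called higher and 6 lower, and the difference was called lower for 11 and higher for 4. Of the glycolysis genes, 8 of 22 were higher and 5 lower, and the difference was called lower for 18 and higher for 1. EPAS1, another HIF subunit, rose slightly in Jurkat (6.84 and 7.40 to 8.95 and 9.75 CPM) and fell in HSB-2 from 81.7 and 83.9 to 7.28 and 6.81 CPM. Ribosomal protein genes were higher in HSB-2 as well, 58 of 77 with none lower by edgeR. Histone genes went the other way, 29 of 31 lower in HSB-2, and the difference was called lower for 29. IL32 did not pass the test in HSB-2 (1213 and 1198 against 1132 and 1199 CPM, adjusted p = 0.32), and its difference did (-1.29, adjusted p = 4.3e-15).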

How the data were processed

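RNA-seq was performed on total RNA, depleted of ribosomal RNA, of 16 libraries, and the 4 Jurkat control libraries were compared here. The authors mapped reads with an in-house pipeline (BWA, GRCh37-lite) and counted them per gene with HT-seq, and the submitters' processing notes also name STAR, CASAVA and HTSeq 0.6.1p1. The values as deposited are unnormalized read counts for each gene and library. Strand setting and annotation release are not given in the sources used here, so genes with antisense, overlapping or near-identical partners are uncertain. Mitochondrial genes were listed at 0.

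The table held 57820 gene IDs without names, of which 55538 were given a symbol from a table of gene names. Gene positions, GC content and transcript length came from GENCODE 44 mapped to GRCh37 (96.32% of the genes tested), and promoters from RefSeq (GRCh38.p14). Counts were fitted in edgeR 4.0.16 (R 4.3.3; limma 3.58.1) with all 16 libraries as 8 groups, TMM scaling, filterByExpr, quasi-likelihood F-tests and adjustment by Benjamini-Hochberg. Total counts were 76602847 to 235467749 per library. The difference between the lines was an interaction term. The procedure was tested on simulated data.

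The comparison and the 44 gene lists were chosen with earlier results of these data known. The text names USP7, the 15 largest changes and 5 largest CPM differences in each direction (called genes of at least 5 CPM whose groups do not overlap), up to 4 called members per list with any member of lists of 12 genes or fewer, and the 5 highest and 5 lowest differences between the lines. BHLHE40, ANKRD37, HIF1A, VEGFA, ENO3, WSB1, NR4A1, SPRY1, FOSB, DUSP1, FOXO1, IKZF3, PRF1, GZMA and the genes of the closing observations were named after their values were seen. Alternatives were other scalings, filters and tools, a GC and length offset, a replicate block, fits on fewer groups and leaving out each library. One result is not reported here.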

Additional observations from a re-analysis of the deposited data

Results flagged for a closer look

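The change from wild-type to scrambled cells differed between the lines for 97 of the 123 named genes by edgeR's interaction term. Among all genes tested the share was 28.4%, but many named genes were chosen for called changes in Jurkat or for this difference itself. The 42 described here are those called in opposite directions in the lines and those named for the size of the difference, and the largest adjusted p of the 42 was 0.00032 (HES4). In 36 of them the change was called in both lines with opposite signs. All values are log2 differences, HSB-2 minus Jurkat, and groups of 2 libraries allow no test for a single stray library.

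Immediate early and activation genes were higher in scrambled Jurkat and lower in scrambled HSB-2 cells. The difference was -4.08 for EGR1, -5.11 for EGR2, -4.99 for EGR3, -2.57 for NR4A1, -2.14 for NR4A3, -2.96 for CD69 and -1.47 for TNFAIP3. The same signs held for the T-cell and cytotoxic genes CD3D (-0.87), SLA (-0.85), SIT1 (-0.83), CD99 (-0.67), TOX2 (-2.18), GZMA (-1.91), CTSW (-2.22) and SKAP1 (-3.27). The Jurkat call of SKAP1 (log2 fold change 0.25) was lost without the scrambled replicate 1 (0.18, adjusted p = 0.11), with the GC and length offset (0.10, adjusted p = 0.2) and under library totals (0.09, adjusted p = 0.33).

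Of genes tied to hypoxia and glycolysis, BHLHE40 differed by -1.34, ALDOC by -0.84 and EPAS1, which encodes HIF-2alpha, by -3.95. EPAS1 fell from 81.7 and 83.9 to 7.28 and 6.81 CPM in HSB-2 cells, where Jurkat cells went from 6.84 and 7.40 to 8.95 and 9.75 CPM. Genes of DNA synthesis and chromatin differed by -2.71 (TK1), -0.65 (RRM2) and -1.14 (H2BC11), and the noncoding RNAs RN7SL2, RN7SK and TERC by -1.06, -0.75 and -1.42.

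The remaining genes higher in Jurkat and lower in HSB-2 were APP (-3.35), LGALS1 (-1.91), IFI44 (-1.76), TRIM22 (-1.65), HES4 (-1.64), CDKN1A (-1.49), BCL2 (-0.79), HSPA8 (-0.78) and EBP (-0.57). CDK6 (0.47), S1PR4 (1.29) and FOXO1 (1.14) were lower in Jurkat and higher in HSB-2 scrambled cells.

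Another 6 genes did not have called changes of opposite sign. ANXA1 was lower in both lines, more so in HSB-2 (-2.95). LSAMP (2.14), RAB44 (2.04), CST7 (1.83) and KBTBD11 (1.77) were higher in both lines, more so in HSB-2, and LSAMP went from 44.5 and 42.6 to 52.5 and 52.8 CPM in Jurkat and from 4.09 and 3.85 to 21.8 and 20.7 CPM in HSB-2. The Jurkat call of CST7 was lost without either wild-type replicate or the scrambled replicate 1 (adjusted p = 0.075, 0.11 and 0.17). FAM124A differed by 2.48, and its Jurkat change of -0.16 was not called (adjusted p = 0.32).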

How the results depend on the processing

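Among the named genes 1 value changed sign under an alternative: TCF3 was -0.0115 under library totals. Of 1947 values of the 123 named genes under alternatives, 1866 stayed on their side of the threshold with the same direction, 74 lost the call, in 26 genes, and 6 gained it. A test against a 1.2-fold change called 1203 genes in Jurkat, 2647 in HSB-2 and 2457 for the difference, with 357 lower by at least 1.5-fold, and left 13 immediate early, 6 DNA replication, 8 histone and 32 ribosomal protein genes higher and 7 T-lineage factors lower, as a stricter null hypothesis must. Library totals gave 285 genes higher and 1405 lower by at least 1.5-fold, 15 DNA replication and 13 histone genes higher. With the GC and length offset 1102 genes were lower by at least 1.5-fold and 15 histone genes higher. The cause was not tested. The calls in Jurkat numbered 6087 with DESeq2 1.42.0, 5970 with RLE factors, 5702 with all genes that had a count and 5830 with at least 10 counts in each library.

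Leaving out each library in turn gave 4036 to 4901 calls in Jurkat, 5466 to 6573 in HSB-2 and 5066 to 6248 for the difference, 348 to 519 genes higher and 505 to 611 lower by at least 1.5-fold, and 18 to 18 hypoxia-response, 16 to 17 glycolysis, 19 to 21 immediate early, 26 to 29 DNA replication, 24 to 26 histone and 65 to 70 ribosomal protein genes higher and 15 to 15 T-lineage factors lower. The labels give replicates 1 and 2 in each group and no shared source. With the replicate number as a block 5703 genes were called in Jurkat, 7533 in HSB-2 and 6273 for the difference, and with the GC and length offset in the same fit 6667, 8399 and 6638, with 15 histone genes higher. The differences between replicates 1 and 2 correlated at 0.427 across genes between the 2 Jurkat controls and at -0.541 to 0.621 among all pairs of groups. With 2 pairs and no shared source in the labels, the samples share only a number. Genes under the floor of 3 counts, 0.0257 to 0.0333 CPM in the Jurkat controls, could not be measured at this depth.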

Other observations

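Several gene groups stood outside the comparisons above. Of 32 cytokine and cytokine receptor genes, 9 were called higher and 8 lower in scrambled Jurkat cells (3 and 12 under library totals). IL10RA, a chain of the interleukin-10 receptor, fell from 7.89 and 8.78 to 4.11 and 4.00 CPM (log2 fold change -1.04), and IL2RG, the common gamma chain, rose from 276 and 284 to 378 and 387 CPM (log2 fold change 0.45). Of 34 proteasome subunits, 16 were higher and none was lower by edgeR, with 15 and 3 under the GC and length offset and 5 and 9 under library totals. Of 16 genes of MHC class I presentation, 7 were higher and 3 lower (1 and 6 under library totals), and of 9 of class II, 1 was higher and 1 lower. The share of class II genes called was 22.22%, against 25.9% of all genes tested. Of 32 genes of ATF4 and amino acid stress, 6 were higher and 10 lower. These counts were 4 and 15 with the GC and length offset and 2 and 20 under library totals. Of 18 genes of the unfolded protein response, 6 were higher and 3 lower (3 and 9 under library totals).

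Of 20 snoRNA host genes, 8 were higher and 1 lower (3 and 8 under library totals), and of 25 genes of MYC-driven ribosome biogenesis, 8 were higher and 4 lower (2 and 11 under library totals). Of 11 genes of fatty acid synthesis, 3 were higher and 3 lower. Of 11 structured noncoding RNAs, 4 were higher and 2 lower. Of 14 genes for USP7 and its partners, 2 were higher and 3 lower, and of 18 lentiviral host factors, 2 were higher and 4 lower. The shares called were 35.71% for USP7 and its partners and 33.33% for the host factors, against 25.9% of all genes tested.

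Pseudogenes of mitochondrial origin on chromosome 1 (GRCh37) were looked at after their values were seen, since the mitochondrial genes themselves were listed at 0. MTND2P28 was at 96.2 and 90.3 CPM in wild-type and 47.0 and 47.6 CPM in scrambled Jurkat cells (log2 fold change -0.98, adjusted p = 4.2e-11 in edgeR), and its change in HSB-2 was 0.04 (adjusted p = 0.68), a difference of 1.02 between the lines. MTND1P23 (-0.98), MTATP6P1 (-0.66) and MTCO1P12 (-0.27) were lower as well. They are near-identical to mitochondrial DNA, and reads from the 2 sources cannot be told apart here. MIR3648, in the ribosomal DNA repeat, was at 907 and 3091 CPM in the 2 wild-type libraries and 1444 and 1384 CPM in the scrambled ones (adjusted p = 0.23), so the wild-type replicates differed from each other by more than the groups did.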
